A study of Mus musculus with 3 samples.

Results

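The antioxidant genes of mouse aortic endothelial cells described here encode the enzymes that remove peroxides, make and recycle glutathione, keep thioredoxin reduced, supply NADPH and export glutathione conjugates, with the NRF2 regulator and its partner KEAP1. They were taken from a list of 47 gene symbols, of which 46 were among the 18287 genes listed in the count table, and all 46 were protein-coding. The remaining symbol, Sod3, was not analysed here. The list was grouped into 10 roles. It was not picked by a rule on the values below. It was chosen with earlier results of this series known, among them its NRF2 response, so its shares are a description.

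The cells are a purchased culture of the endothelium that lines the mouse aorta, and there was 1 sequencing library in each of 3 groups. The control group was labelled as control, with no agent named. The glucose oxidase group was given 5 mU/mL of glucose oxidase for 30 min, an enzyme that oxidises glucose and releases hydrogen peroxide. The glucose oxidase plus Et2HOBA group was given the same enzyme dose and 0.2 mM ethyl-2-hydroxybenzylamine (Et2HOBA) for 24 h. The series used Et2HOBA to scavenge isolevuglandins, lipid peroxidation products that attach to proteins. The labels give no mouse strain, age, passage or order of exposure, and do not say how long after glucose oxidase the RNA was taken. No group with Et2HOBA in the absence of glucose oxidase was analysed here, so an action of Et2HOBA by itself and an action on the oxidant response cannot be told apart.

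Cells detoxify hydrogen peroxide through a few linked routes. Catalase splits it directly, glutathione peroxidases use glutathione, and peroxiredoxins use thioredoxin. Both thiol carriers are reduced again at the expense of NADPH, which comes largely from the pentose phosphate pathway. Transcription of many of these enzymes depends on NRF2 (gene Nfe2l2), which KEAP1 marks for degradation until oxidants or electrophiles modify KEAP1. Stabilised NRF2 pairs with small MAF proteins and binds antioxidant response elements in promoters and enhancers. NRF2 is regulated mainly as a protein, so its own mRNA is a poor guide to its activity.

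The libraries held 35969965 reads in control, 35005089 with glucose oxidase and 40212212 when Et2HOBA was added, and the 46 genes took 0.658%, 1.06% and 1.12% of them. All 10 endothelial markers were detected in every library, with summed normalized counts of 366512.5 in control, 240512 with glucose oxidase and 221360 when Et2HOBA was added. Of the markers of other cell types, 5 of 6 for smooth muscle, 2 of 5 for fibroblasts, 3 of 6 for leukocytes, 2 of 3 for lymphatic endothelium and 1 of 4 for epithelium were listed. Their summed normalized counts are given for control first and for the library with Et2HOBA last. The sums were 4859, 3717 and 3943 for smooth muscle, nearly all from Smtn, while Myh11 had 19, 35 and 73 reads and Cnn1 was not listed. The sums were 1.0, 5.2 and 5.8 for epithelium. They were 130.8, 1404 and 2738 for fibroblasts, mostly from Pdgfra, while Dcn, Lum and Col1a2 were not listed. They were 7972, 17701 and 26777 for leukocytes, nearly all from Cd68, while Ptprc, Adgre1 and Cd3e were not listed. They were 18313, 29524 and 39497 for lymphatic endothelium, mostly from Lyve1, while Prox1 was not listed. The last 3 of these sums moved in the same order as many antioxidant genes, and their part in the results was not tested.

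With 1 library per group there was no replicate, so no test between conditions was possible and no p-value is given. Each fold is printed with its 95% interval in parentheses, an exact Clopper-Pearson interval for the split of a gene's reads between 2 libraries. It covers counting error alone and says nothing of the spread between cultures. Ratios between libraries are on the log2 scale of normalized read count plus a pseudocount of 10, and a gene was counted as higher or lower when its ratio reached 1 log2 unit, or 2-fold. Folds of single genes are given without the pseudocount. In such bulk RNA, a change in the share of cells of a type and a change in RNA per cell cannot be told apart.

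The comparison of glucose oxidase with control addresses the response of these genes to the oxidant. After glucose oxidase, 13 of the 46 antioxidant genes (28.3%) were higher than in control by the limit and 0 were lower. Over all protein-coding genes the same limit called 4.53% higher and 4.76% lower, and over all listed genes 4.07% higher and 8.60% lower. The median log2 ratio of the 46 was 0.45, beside 0.04 for protein-coding genes and -0.01 for all listed genes. The 13 were 2.06-fold to 7.08-fold of control, and they came from 7 of the 10 roles, the exceptions being the glutathione peroxidases, catalase with the superoxide dismutases, and the glutaredoxins. The gene nearest to the limit on its far side was Txnrd1, with a log2 ratio of 1.04, and the nearest inside was Gsto1 with 0.96.

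With Et2HOBA as well as glucose oxidase, the comparison with the same control library gave 13 of 46 genes higher and 0 lower. The background in that comparison was 7.33% higher and 9.30% lower over protein-coding genes, and 6.66% and 8.04% over all listed genes. The median log2 ratio of the 46 was 0.49, beside 0.00 for protein-coding genes. Just past the limit was Gstm1 at 1.12, and Prdx1 lay just inside it at 0.9995. Because both comparisons use 1 control library, their similarity is not independent support. Of the 46 genes, 12 were past the limit in both comparisons with control, 31 were past it in none of the 3 comparisons, and 3 (Gstp1, Gsto1 and Txnip) were past it in only 1 each.

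**Figure D1:**
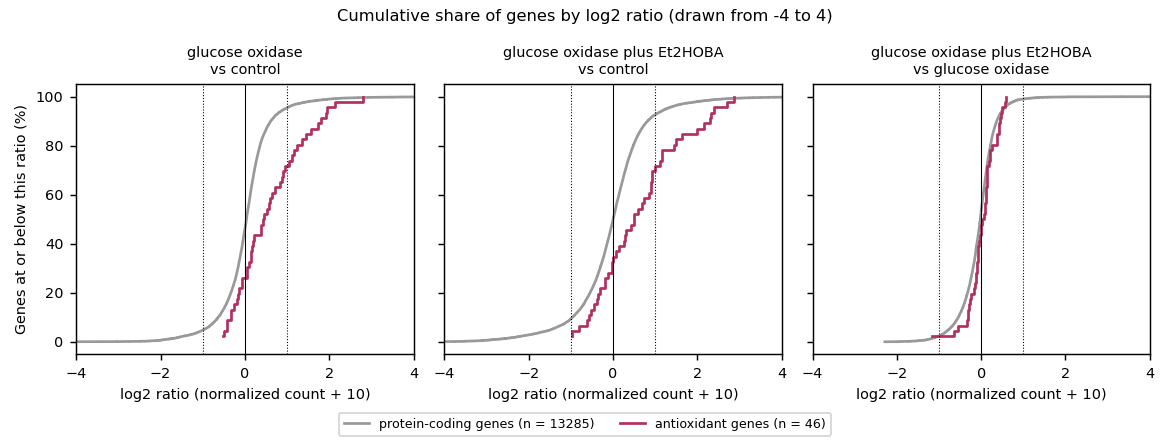
Cumulative share of genes (vertical axis, %) at or below each log2 ratio (horizontal axis, normalized count plus 10), for the 46 antioxidant genes and for 13285 protein-coding genes, in the 3 comparisons. In both comparisons with control the antioxidant curve lies to the right of the protein-coding curve over most of its length, with medians of 0.45 and 0.49, while between the treated libraries the curves lie close together. Dotted lines mark the limit of 1 log2 unit.

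The promoters of 41 of the 46 genes were available from RefSeq (GRCm38.p6) as windows from 250 bases before to 50 bases after an annotated start. Gclc, Gsr, Prdx6, Gsta4 and Abcc1 had no window. The windows were searched on both strands for the core of the antioxidant response element, TGACNNNGC, and for the letters bound by NRF2 with a small MAF, TGANTCAGC. The second motif was chosen after the sequences had been looked at. It overlaps the AP-1 site TGACTCA, since any match with C or G in place of its N holds the AP-1 letters on either strand. The 4 genes with a TGANTCAGC match upstream of a RefSeq start are printed first because 3 of them were past the limit. The 2 that follow hold only the shorter core and were past the limit in both comparisons with control. The same is true of Abcc4, which is not printed. G6pdx, Mgst1, Nfe2l2 and Sod1 also hold only the core upstream, were past the limit in no comparison, and are not printed. A RefSeq start can lie away from the edge of the gene position given below. The Osgin1 and Txnrd1 sequences lie inside those positions, and the Gstp1 sequence spans the edge. Sequences run 5′ to 3′ on the strand of the gene, and capitals mark the match, which reads on the opposite strand where it begins with GC.
Srxn1 (chr2:152105453-152105513, plus strand): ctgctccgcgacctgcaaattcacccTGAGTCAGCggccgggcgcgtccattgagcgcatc
Osgin1 (chr8:119437022-119437082, plus strand): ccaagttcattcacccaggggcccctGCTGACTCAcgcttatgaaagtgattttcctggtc
Gstp1 (chr19:4037952-4038012, minus strand): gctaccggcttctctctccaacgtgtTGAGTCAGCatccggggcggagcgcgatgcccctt
Prdx1 (chr4:116685440-116685500, plus strand): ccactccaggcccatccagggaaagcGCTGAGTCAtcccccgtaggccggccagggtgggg
Gclm (chr3:122245397-122245457, plus strand): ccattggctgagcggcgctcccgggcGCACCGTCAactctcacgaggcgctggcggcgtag
Txnrd1 (chr10:82859088-82859148, plus strand): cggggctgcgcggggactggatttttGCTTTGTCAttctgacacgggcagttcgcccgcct

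The TGANTCAGC letters stood in a window of 5 of the 41 genes (12.2%), beside 1.39% of listed genes and 1.37% of all genes with a window. They were in 3 of the 10 genes with a window that were higher than control by the limit, Srxn1, Osgin1 and Gstp1. They were also in 2 of the other 31, Prdx1 and Me1, the match in Me1 lying across its RefSeq start. Because the motif was chosen after the sequences had been looked at, these shares are a description and support no conclusion. The shorter core stood in 11 of the 41 (26.8%), beside 16.7% of listed genes. It was in 4 of the 10 and in 7 of the 31. The AP-1 letters stood in 6 of the 41 (14.6%), beside 4.93% of listed genes. These 6 were Glrx and the same 5 genes that held TGANTCAGC, so the shares of these motifs are not separate results. A match of letters is a description and not a binding site, and binding outside these windows was not examined.

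Among the regulators, the mRNA of Nfe2l2 and Keap1 was somewhat lower in the treated libraries while 2 response genes were more than 2-fold higher. Nfe2l2 had 16468 reads in control, 13495 with glucose oxidase and 12876 when Et2HOBA was added. That was 0.876-fold (0.856 to 0.896) and 0.777-fold (0.759 to 0.795) of control. Keap1 had 3152, 2471 and 2192 reads in the same order, or 0.838-fold (0.795 to 0.884) and 0.691-fold (0.654 to 0.730). For both genes control was the highest library and Et2HOBA the lowest. An antisense transcript, Gm16754, covers 10.9% of the exon bases of Keap1 and had 45, 38 and 43 reads. The strand setting of the counting is not known here, so for this and the other overlaps given below, reads of the 2 strands cannot be told apart.

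Nqo1 encodes the quinone reductase that is a classic readout of NRF2 (ENSMUSG00000003849.8, chromosome 8, 107388225 to 107403206, in GRCm38 like all gene positions here). It had 5440 reads in control, 13083 with glucose oxidase and 15396 when Et2HOBA was added, or 2.57-fold (2.49 to 2.65) and 2.81-fold (2.73 to 2.90) of control. Osgin1, an oxidative stress induced growth inhibitor (ENSMUSG00000074063.10, chromosome 8, 119434124 to 119446256), had 279, 631 and 782 reads, or 2.42-fold (2.10 to 2.79) and 2.79-fold (2.43 to 3.20). Both treated libraries stood well above control for these genes, and the library with Et2HOBA was the higher, by 1.09-fold for Nqo1 and 1.15-fold for Osgin1. On the scale of the deposited tables Osgin1 lay inside the limit after glucose oxidase, at 0.91.

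Glutathione is made in 2 steps, and of the 4 genes of its synthesis and recycling 2 were higher than control by the limit in both treated libraries. All 4 had ratios above 0, as did 54.0% of protein-coding genes after glucose oxidase and 50.1% with Et2HOBA. Their summed normalized count was 2.32-fold of control after glucose oxidase and 2.74-fold with Et2HOBA. Gclm encodes the modifier subunit of glutamate-cysteine ligase, the rate-limiting enzyme (ENSMUSG00000028124.15, chromosome 3, 122245557 to 122270732). Its reads were 2727 in control, 9842 with glucose oxidase and 13701 when Et2HOBA was added, or 3.86-fold (3.70 to 4.03) and 4.99-fold (4.79 to 5.20) of control. Gclc encodes the catalytic subunit (ENSMUSG00000032350.9, chromosome 9, 77754535 to 77794485), and had 2497, 5242 and 5618 reads, or 2.24-fold (2.14 to 2.35) and 2.24-fold (2.13 to 2.34).

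The subunits of the ligase differed in their ratios. On the RPKM scale, reads per kilobase of exon and library size, Gclc stood at 18.4 in control, above Gclm at 12.1, and in the library with Et2HOBA Gclm stood at 54.2, above Gclc at 37.1. Between the treated libraries Gclc was level, at 0.996-fold (0.959 to 1.03), and Gclm was 1.29-fold higher with Et2HOBA (1.26 to 1.33). Gss, the glutathione synthetase of the second step, had log2 ratios of 0.52 and 0.93 against control, and was 1.33-fold higher with Et2HOBA than without it (1.25 to 1.42). Gsr, which reduces oxidised glutathione with NADPH, had 0.46 and 0.58. Exons of other genes on the opposite strand cover parts of Gss, among them Acss2 with 6.68% of its exon bases and 815, 437 and 462 reads, and Gm17494 covers 4.71% of Gclm, with 130, 71 and 200 reads.

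**Figure D2:**
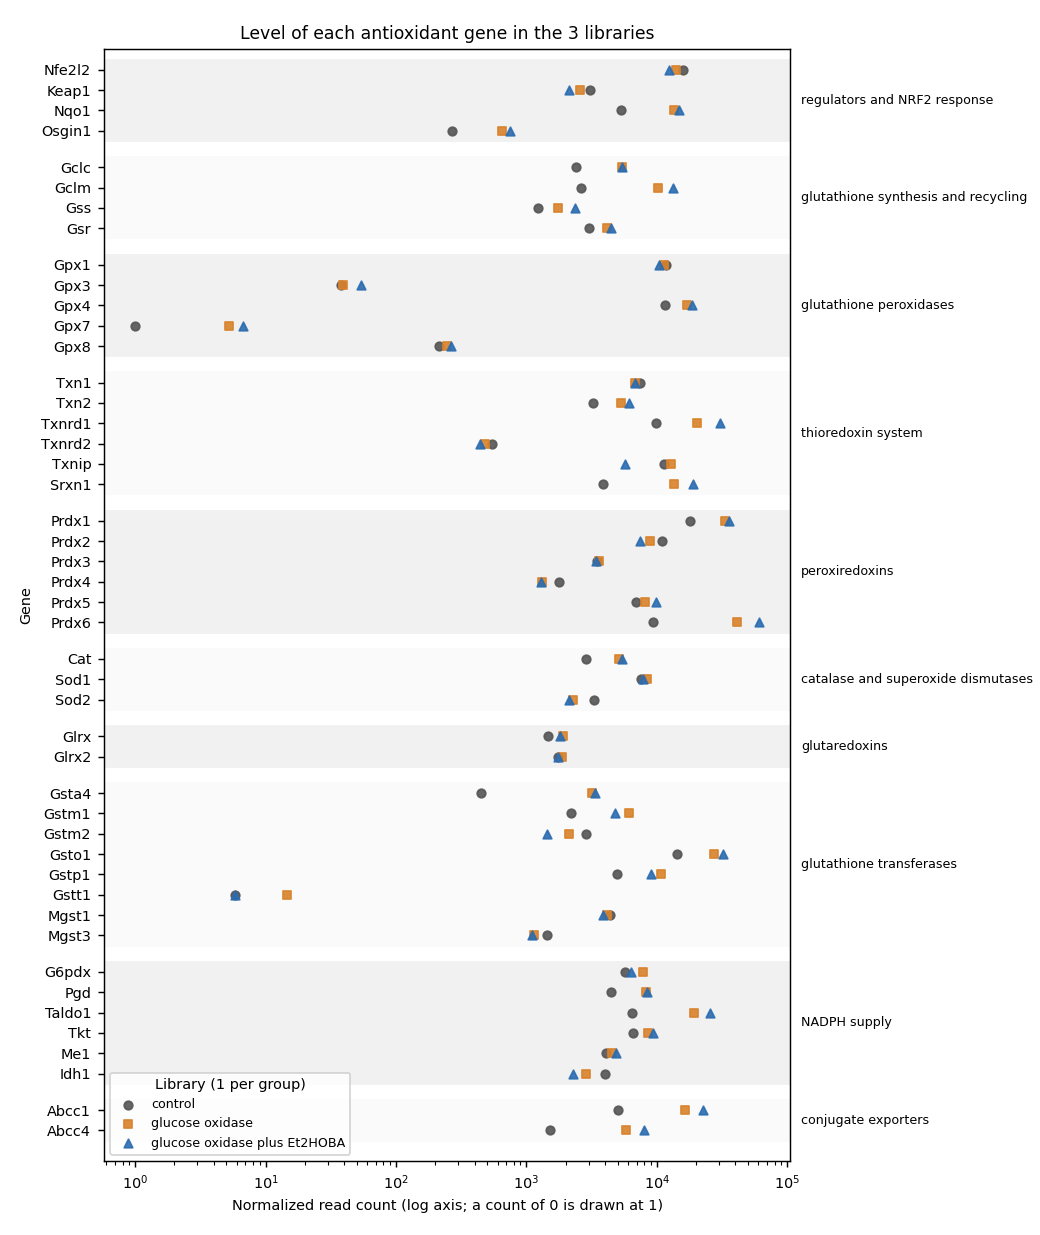
Normalized read count (horizontal, log axis) of each of the 46 antioxidant genes in the 3 libraries, 1 per group, grouped by role. The circle of control lies left of both treated symbols for genes such as Gclm, Srxn1, Prdx6, Gsta4 and Abcc1, and right of both for Prdx2, Sod2, Gstm2 and Idh1; the count of 0 for Gpx7 in control is drawn at 1.

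None of the 5 glutathione peroxidases reached the limit in any comparison, although Gpx7, with 7 reads or fewer, passed it against control with a pseudocount of 1. These enzymes reduce peroxides with glutathione, and Gpx1 and Gpx4 carried nearly all of the reads. Gpx1, the main cytosolic form, had 12210 reads in control, 10856 with glucose oxidase and 10700 when Et2HOBA was added, which was 0.951-fold (0.926 to 0.975) and 0.871-fold (0.848 to 0.894) of control. Gpx4, which reduces lipid hydroperoxides in membranes, had 11909, 16492 and 19436 reads, or 1.48-fold (1.45 to 1.52) and 1.62-fold (1.58 to 1.66). Per length Gpx1 was the more abundant in control, at 235.6 against 192.0, and Gpx4 in both treated libraries, at 273.3 against 215.2 and at 280.4 against 184.7.

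The read count of Gpx4 depends on the assignment of shared reads. Of the 50-base stretches of its longest transcript, 61.7% also occur in the processed pseudogene Gpx4-ps2, which was listed with 595, 554 and 1034 reads. Gpx8, a form of the endoplasmic reticulum, had 222, 236 and 273 reads and log2 ratios of 0.18 and 0.28 against control. The secreted Gpx3 had 39, 38 and 56 reads and Gpx7 had 0, 5 and 7, too few to place either.

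In the thioredoxin system, the reductase and sulfiredoxin were higher in the treated libraries, thioredoxin itself was nearly level, and the thioredoxin inhibitor Txnip was lower only where Et2HOBA was given. Txnrd1 encodes the cytosolic selenoenzyme that reduces thioredoxin with NADPH (ENSMUSG00000020250.10, chromosome 10, 82833951 to 82897712). It had 10143 reads in control, 19515 with glucose oxidase and 31610 when Et2HOBA was added, or 2.06-fold (2.01 to 2.11) and 3.10-fold (3.03 to 3.17) of control. Srxn1 encodes sulfiredoxin, which repairs overoxidised peroxiredoxins (ENSMUSG00000032802.8, chromosome 2, 152105516 to 152111376). Its reads were 3982, 13051 and 19771, or 3.50-fold (3.38 to 3.63) and 4.93-fold (4.77 to 5.11). For both genes the 3 libraries were in the order control, glucose oxidase, glucose oxidase plus Et2HOBA. Scaling by total reads moved Txnrd1 inside the limit after glucose oxidase.

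The substrate of the reductase did not follow it. Txn1, the cytosolic thioredoxin, had log2 ratios of -0.13 against control in both treated libraries and of -0.00 between them. In mitochondria the pattern was the other way round: Txn2, the mitochondrial thioredoxin, was 1.64-fold (1.57 to 1.71) and 1.87-fold (1.79 to 1.95) of control. Its reductase Txnrd2 was 0.891-fold (0.786 to 1.01) and 0.810-fold (0.714 to 0.919).

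Txnip encodes an alpha-arrestin that binds reduced thioredoxin (ENSMUSG00000038393.14, chromosome 3, 96557957 to 96561883). It had 11691 reads in control, 12408 with glucose oxidase and 5965 when Et2HOBA was added. The first 2 libraries were close, with glucose oxidase 1.14-fold of control (1.11 to 1.16), and the library with Et2HOBA stood below both. It was 0.507-fold of control (0.491 to 0.523) and 0.447-fold of glucose oxidase (0.433 to 0.461). Against control the log2 ratio was -0.98, inside the limit, and it passed the limit when libraries were scaled by total reads. The antisense transcript Gm15441 covers 19.4% of the exon bases of Txnip and had 47, 36 and 15 reads. As shares of the summed per-length level of the 6 thioredoxin genes, Txnip made up 25.4% in control, 21.04% with glucose oxidase and 8.82% when Et2HOBA was added, and Srxn1 9.57%, 24.5% and 32.4%.

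The peroxiredoxins, which reduce peroxides with a reactive cysteine, split in direction, and Prdx6 alone passed the limit. Prdx6 encodes the 1-cysteine peroxiredoxin that reduces phospholipid hydroperoxides using glutathione (ENSMUSG00000026701.15, chromosome 1, 161240112 to 161251219). It had 9585 reads in control, 39555 with glucose oxidase and 63278 when Et2HOBA was added, the highest count of any of the 46 genes. These were 4.41-fold (4.31 to 4.51) and 6.56-fold (6.42 to 6.70) of control, and the library with Et2HOBA was 1.49-fold (1.47 to 1.51) of the library without it. Prdx1, an abundant cytosolic form that uses thioredoxin, had 18605, 32317 and 37447 reads, or 1.86-fold (1.82 to 1.89) and 2.00-fold (1.97 to 2.04), at the limit. It shares stretches with processed pseudogenes, the largest share being 7.48% with Gm21399, which had 304, 94 and 547 reads.

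The other cytosolic form moved against these. Prdx2 was 0.801-fold (0.779 to 0.824) of control after glucose oxidase and 0.679-fold (0.660 to 0.699) with Et2HOBA. It overlaps exons of Junb and Rnaseh2a on the opposite strand, over 5.67% and 5.80% of its exon bases. Junb had 7172, 5026 and 4018 reads, and Rnaseh2a had 939, 925 and 720. Prdx2 also shares 8.96% of its stretches with the processed pseudogene Tdpx-ps1, which had 228, 44 and 144 reads. Prdx4 of the endoplasmic reticulum had log2 ratios of -0.42 and -0.45 against control, mitochondrial Prdx3 had 0.06 and -0.03, and Prdx5, found in several compartments, had 0.22 and 0.49. Exons of Trmt112 on the opposite strand cover 19.1% of the exon bases of Prdx5, with 2256, 2483 and 2586 reads. In RPKM, Prdx6 stood at 55.5 in control, below Prdx1, Prdx2, Prdx3 and Prdx5, and at 327.6 with Et2HOBA, above Prdx1 at 306.0. Its share of the summed per-length level of the family was 10.8% in control, 29.1% with glucose oxidase and 36.8% when Et2HOBA was added, while that of Prdx2 was 20.2%, 9.87% and 7.11%.

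**Figure D3:**
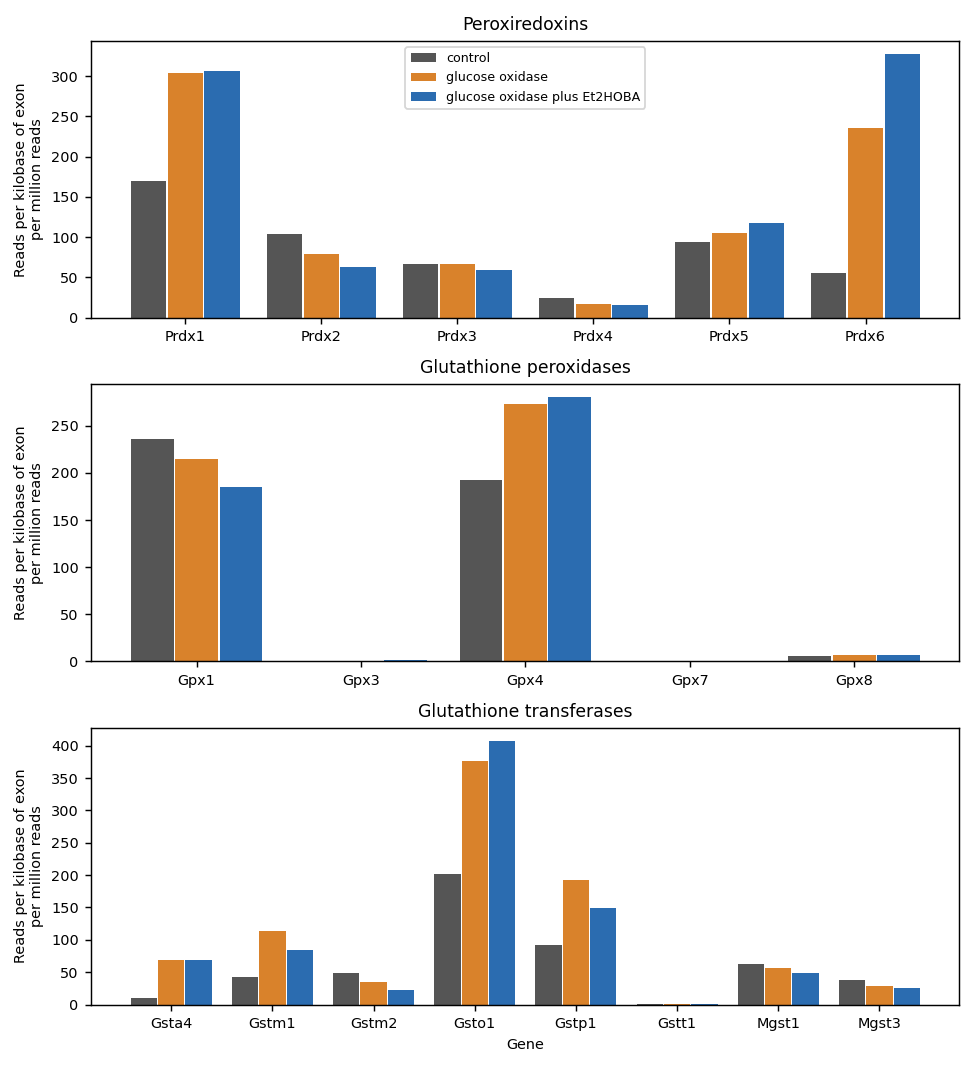
Level per length (RPKM, reads per kilobase of exon scaled to library size, vertical axis from 0) of each peroxiredoxin, glutathione peroxidase and glutathione transferase in the 3 libraries, 1 bar per library, with no error bars because there were no replicates. Prdx6 stood at 55.5 in control, 235.2 with glucose oxidase and 327.6 when Et2HOBA was added, while Prdx2 stood at 103.6, 79.8 and 63.3; Gpx1 and Gpx4 changed places, and Gsto1 was the most abundant transferase in every library.

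Catalase was nearly 2-fold higher in the treated libraries, cytosolic superoxide dismutase was nearly level and the mitochondrial enzyme was lower. Cat, the peroxisomal enzyme that splits hydrogen peroxide, had 2935 reads in control, 4908 with glucose oxidase and 5584 when Et2HOBA was added, or 1.79-fold (1.71 to 1.87) and 1.89-fold (1.81 to 1.98) of control. Superoxide dismutases turn superoxide into hydrogen peroxide. Sod1 of the cytosol had 7737, 8057 and 8193 reads, or 1.11-fold (1.08 to 1.15) and 1.05-fold (1.02 to 1.09), and the sign of the latter turned when libraries were scaled by total reads. Mitochondrial Sod2 had 3398, 2198 and 2208 reads, or 0.692-fold (0.655 to 0.730) and 0.646-fold (0.612 to 0.681). The 2 glutaredoxins, which remove glutathione from protein thiols, stayed within 0.39 log2 units of control, with Glrx at 0.39 and 0.31 and Glrx2 at 0.09 and -0.02.

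Glutathione transferases join glutathione to electrophiles, and of the 8 measured 3 were higher by the limit in each comparison with control, though not the same 3. Gsta4 and Gstm1 were past the limit in both, Gstp1 after glucose oxidase only and Gsto1 with Et2HOBA only. Whether these treatments differ for Gstp1 or Gsto1 could not be tested. Gsta4, an isoform with high activity toward the lipid aldehyde 4-hydroxynonenal (ENSMUSG00000032348.6, chromosome 9, 78182774 to 78209349), had the largest ratio of all 46 genes. Its reads were 466 in control, 3084 with glucose oxidase and 3480 when Et2HOBA was added, or 7.08-fold (6.42 to 7.82) and 7.42-fold (6.73 to 8.19). The treated libraries were nearly level, at 1.05-fold (0.999 to 1.10). Gsta4 lies 388289 bases from Gclc on chromosome 9.

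Gstm1 and Gstp1 were the 2 genes among the 13 higher after glucose oxidase that were lower with Et2HOBA than without it. Gstm1, a mu class enzyme (ENSMUSG00000058135.12, chromosome 3, 108012255 to 108017973), had 2281 reads in control, 5870 with glucose oxidase and 4999 when Et2HOBA was added. These were 2.75-fold (2.62 to 2.89) and 2.18-fold (2.07 to 2.29) of control, and with Et2HOBA it was 0.792-fold (0.762 to 0.822) of glucose oxidase. Gstp1, a pi class enzyme (ENSMUSG00000060803.6, chromosome 19, 4035407 to 4037985), had 5136, 10431 and 9317 reads, or 2.17-fold (2.10 to 2.25) and 1.80-fold (1.74 to 1.86), and 0.830-fold (0.807 to 0.854) between the treated libraries. In both genes glucose oxidase was the highest library and control the lowest. Gstm1 moved inside the limit with Et2HOBA under scaling by total reads.

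Shared sequence touches both of these counts. Gstp1 shares 62.3% of its stretches with Gstp2, which had 8, 12 and 18 reads, and 45.6% with the pseudogene Gstp-ps, which had 31, 60 and 55. Gstm1 shares 17.3% with the pseudogene Gstm2-ps1, which had 20, 19 and 27 reads. All 3 were far below the reads of the genes they resemble.

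Gsto1, an omega class enzyme that acts as a thiol transferase (ENSMUSG00000025068.8, chromosome 19, 47854970 to 47864790), had 14664 reads in control, 26614 with glucose oxidase and 33172 when Et2HOBA was added. It was 1.94-fold (1.90 to 1.98) and 2.25-fold (2.20 to 2.29) of control. Gstm2 lies 25802 bases from Gstm1 on chromosome 3 and moved the other way. It had 2939, 2059 and 1504 reads, or 0.749-fold (0.708 to 0.793) and 0.508-fold (0.477 to 0.541), and scaling by total reads took the latter past the limit. The microsomal enzymes Mgst1 and Mgst3 had log2 ratios between -0.08 and -0.39 against control. Gstt1, with 6, 14 and 6 reads, could not be placed.

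**Figure D4:**
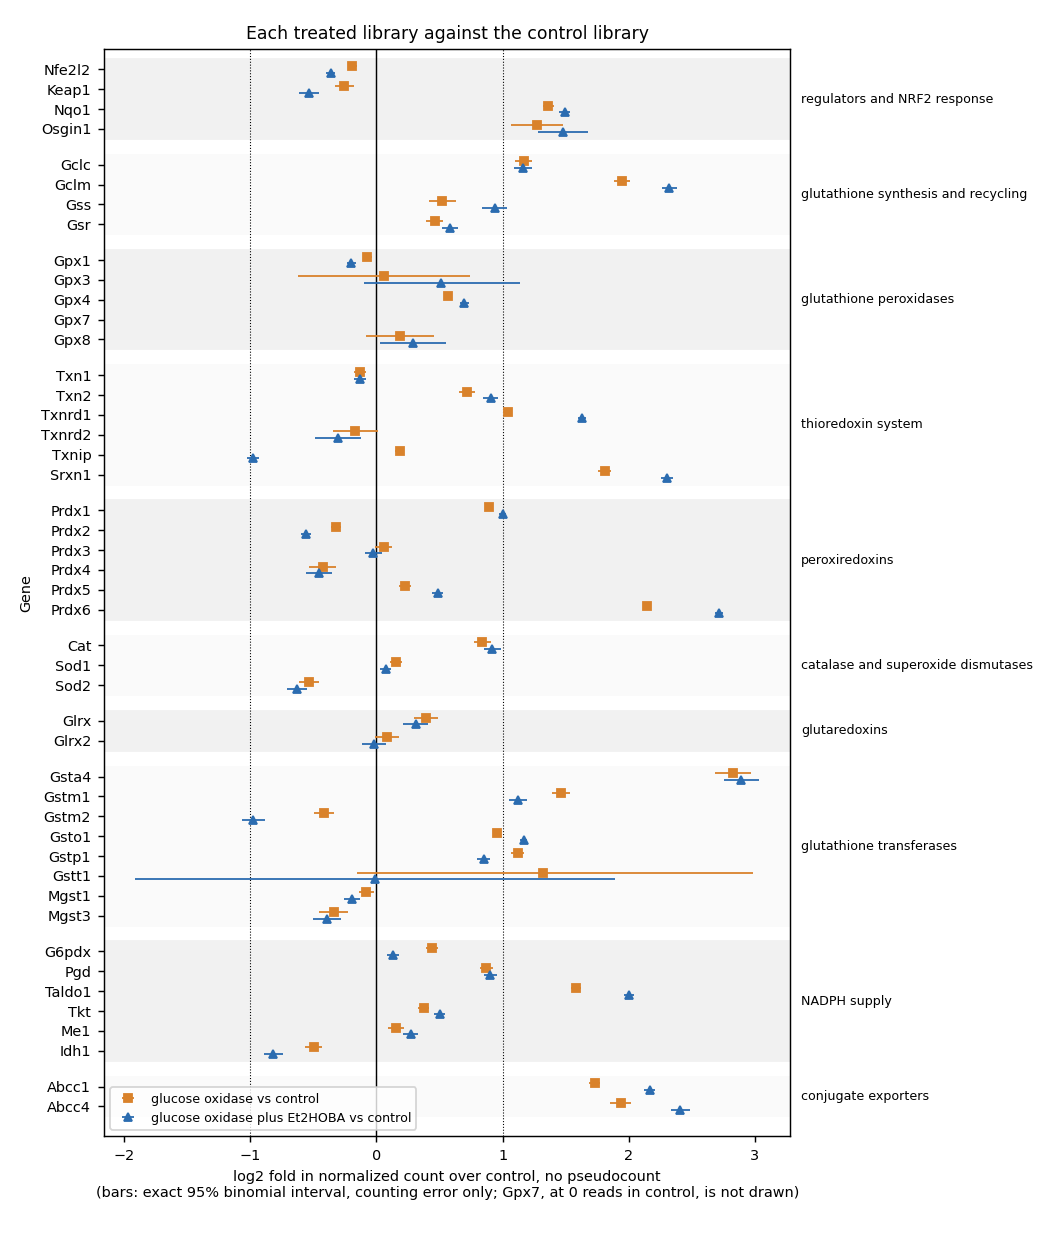
Log2 fold in normalized count of each treated library over the control library (horizontal axis, no pseudocount) for the antioxidant genes, with bars for the exact 95% binomial interval, which covers counting error only. Each of the 10 roles has at least 1 gene right of 0 in both comparisons, and all genes of glutathione synthesis and export lie there; dotted lines mark 2-fold, and Gpx7, at 0 reads in control, is not drawn.

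Of the 6 genes of NADPH supply, 1 was past the limit in both treated libraries, and 5 had ratios above 0, against a background of 54.0% and 50.1% of protein-coding genes. Taldo1 encodes transaldolase of the non-oxidative pentose phosphate branch, which returns carbon for further rounds of NADPH production (ENSMUSG00000025503.5, chromosome 7, 141392199 to 141402968). It had 6630 reads in control, 18544 with glucose oxidase and 26775 when Et2HOBA was added, or 2.99-fold (2.91 to 3.08) and 4.01-fold (3.91 to 4.12) of control. Its processed pseudogene Gm17823, which shares 10.9% of its stretches, had 93, 29 and 403 reads. Tkt, the transketolase of the same branch, was 1.29-fold (1.25 to 1.34) and 1.42-fold (1.37 to 1.46).

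In the oxidative branch, which makes the NADPH, the ratios were smaller than that of Taldo1. G6pdx, the entry enzyme, was 1.35-fold (1.31 to 1.40) of control after glucose oxidase and 1.09-fold (1.06 to 1.13) with Et2HOBA, and the sign of the latter turned under scaling by total reads. Exons of Ikbkg on the opposite strand cover 13.6% of its exon bases, and Ikbkg had 2278, 4092 and 4757 reads. G6pdx also shares 7.65% of its stretches with G6pd2, which had 20, 5 and 28 reads. Pgd, the next dehydrogenase, was 1.83-fold (1.76 to 1.90) and 1.87-fold (1.80 to 1.94). Outside the pathway, malic enzyme Me1 was 1.11-fold (1.07 to 1.16) and 1.21-fold (1.16 to 1.26), and cytosolic isocitrate dehydrogenase Idh1 was 0.708-fold (0.675 to 0.743) and 0.568-fold (0.539 to 0.597). Idh1 was the only gene of the 6 below control. Me1 shares 24.3% of its stretches with the processed pseudogene Gm7049, which had 29, 13 and 42 reads. Per length, Taldo1 stood at 84.9 in control and 306.7 with Et2HOBA, and was the most abundant of the 6 in all 3 libraries.

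Both exporters were past the limit in both treated libraries, and as a role they had the largest summed fold, 3.43 after glucose oxidase and 4.68 with Et2HOBA. Abcc1 encodes MRP1, which pumps glutathione conjugates and oxidised glutathione out of the cell (ENSMUSG00000023088.17, chromosome 16, 14361558 to 14475737). It had 5160 reads in control, 15994 with glucose oxidase and 23288 when Et2HOBA was added, or 3.31-fold (3.21 to 3.42) and 4.48-fold (4.35 to 4.62) of control. Abcc4 encodes MRP4, which exports cyclic nucleotides and other organic anions (ENSMUSG00000032849.14, chromosome 14, 118482692 to 118706219). It had 1552, 5552 and 8299 reads, or 3.82-fold (3.61 to 4.05) and 5.31-fold (5.03 to 5.61). In both genes the library with Et2HOBA was the highest, at 1.35-fold and 1.39-fold of glucose oxidase.

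The treated libraries were then compared with each other, which asks what changed when the scavenger was added to the oxidant. This comparison shares the glucose oxidase library with the first one, so the values of the 2 comparisons are not independent. Of the 46 genes 0 were higher and 1, Txnip, was lower by the limit (2.17%). Over protein-coding genes 0.971% were higher and 2.35% lower, and over all listed genes 6.39% were higher and 2.15% lower, so the share of members was near the background. Of the 1169 listed genes that were higher here, only 129 were protein-coding. Of the 1572 listed genes lower after glucose oxidase than in control, 633 were protein-coding. The glucose oxidase library thus stood apart in genes of other types, and what this means for members with shared sequence was not tested. The median log2 ratio of the 46 was 0.05, beside -0.02 for protein-coding genes. The genes ranged from -1.16 for Txnip to 0.59 for Txnrd1, and the next lowest, at -0.64, was Gstt1 with few reads.

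The remaining differences lay inside the limit. Of the 13 genes higher than control by the limit with glucose oxidase, 9 were further above control with Et2HOBA, with intervals of the treated ratio above 1. They were Nqo1, Osgin1, Gclm, Txnrd1, Srxn1, Prdx6, Taldo1, Abcc1 and Abcc4, from 1.09-fold to 1.51-fold. Gclc and Gsta4 had intervals that held 1, and Gstm1 and Gstp1 were lower. Of the 602 protein-coding genes higher by the limit after glucose oxidase, 62.0% had such an interval above 1 and 5.81% below it, so 9 of 13 was near the background. Over all 46 genes the interval lay above 1 for 19, below 1 for 15 and held 1 for 12. In all, 24 of the 46 stood in the order control, glucose oxidase, glucose oxidase plus Et2HOBA from lowest to highest and 12 in the reverse order, beside 32.4% and 31.6% of protein-coding genes. Outside the 13 and besides Txnip, the lowest genes by more than counting error were Gstm2 at 0.679-fold, Idh1 at 0.802-fold, G6pdx at 0.808-fold, Keap1 at 0.825-fold and Prdx2 at 0.848-fold. The smaller of these differences depend on the scaling: total-count scaling lowers the median of all genes by 0.08 log2 units in this comparison, and the signs for Gsta4, Cat and Pgd turned under it.

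**Figure D5:**
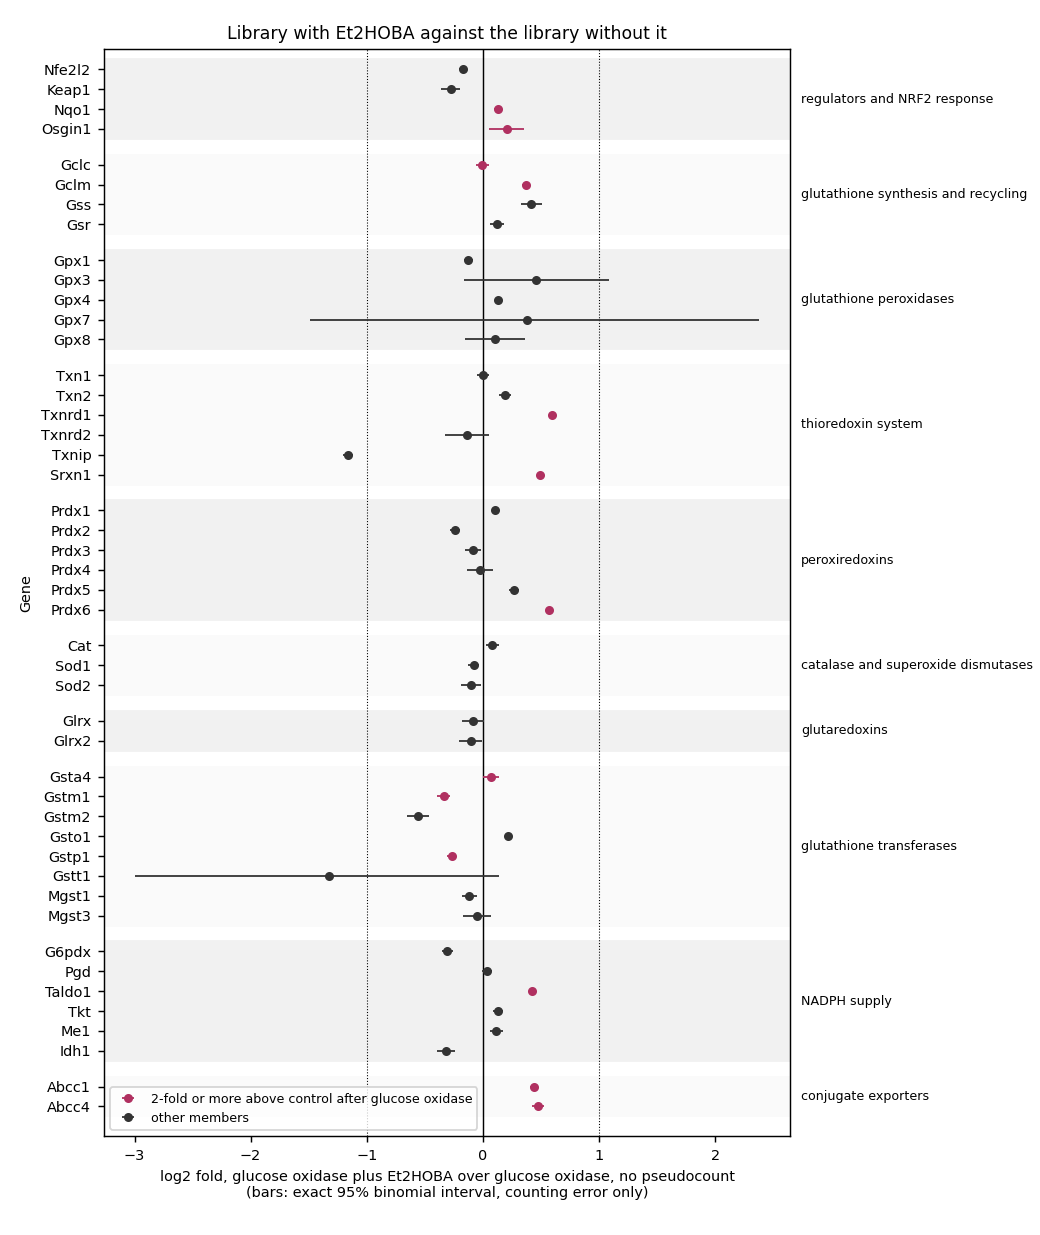
Log2 fold of the library with Et2HOBA over the library with glucose oxidase only (horizontal axis, no pseudocount) for each antioxidant gene, with exact 95% binomial intervals for counting error. Genes that were at least 2-fold above control after glucose oxidase are coloured; 9 of these 13 lie right of 0 with intervals clear of it, and Txnip is the gene farthest to the left that has more than a few reads.

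The wider pathway was read from 7 lists of related genes that hold no member, drawn up with earlier results of these data known. Their counts stand against the protein-coding background of 4.53% higher and 4.76% lower after glucose oxidase, and 7.33% and 9.30% with Et2HOBA. Of 10 listed partners and regulators of NRF2, 2 were higher by the limit after glucose oxidase, 6 with Et2HOBA and 0 lower in either. Bach2, a repressor that competes with NRF2 for its sites, had 75 reads in control, 211 with glucose oxidase and 309 when Et2HOBA was added, or 3.01-fold and 4.09-fold of control. Sqstm1, the autophagy receptor p62 that binds KEAP1, had 23377, 53136 and 75166 reads, or 2.43-fold and 3.20-fold. Maff, a small MAF, had 840, 1137 and 2926 reads. It was 1.45-fold of control after glucose oxidase, 3.46-fold with Et2HOBA, and the only gene of the list past the limit between the treated libraries, at 2.39-fold. Nfe2l1, a relative of NRF2, was 1.61-fold and 2.17-fold of control.

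Of 13 other known NRF2 targets, 7 were higher by the limit after glucose oxidase and 9 with Et2HOBA, with 0 lower, and their medians were 1.19 and 1.30. Fth1, the ferritin heavy chain that stores iron, had 183445 reads in control, 542914 with glucose oxidase and 776210 when Et2HOBA was added, or 3.16-fold and 4.20-fold. Aldh3a1, an aldehyde dehydrogenase, had 57, 217 and 156 reads and was 0.668-fold with Et2HOBA of its level after glucose oxidase. Slc7a11, the cystine importer that feeds glutathione synthesis, was 6.94-fold and 8.62-fold of control. Hmox1, the heme-degrading enzyme, was 4.38-fold and 7.24-fold. The lowest of the list was Ephx1, an epoxide hydrolase, at 0.929-fold and 0.731-fold.

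Among 19 other glutathione genes, 6 were higher by the limit in each comparison with control, with 0 lower after glucose oxidase and 1, Oplah, lower with Et2HOBA. The list median was 0.30 after glucose oxidase and 0.03 with Et2HOBA. Chac1, which degrades glutathione, had 65, 1396 and 2976 reads and the largest ratios of the list, 4.32 and 5.30 log2 units. Gsta3 had 1471, 6469 and 6923 reads, or 4.70-fold and 4.68-fold of control, a pattern across the libraries like that of Gsta4. Esd, an esterase that releases glutathione, was 3.81-fold and 4.45-fold and shares 14.1% of its stretches with other genes. Gsta1 had 8, 228 and 340 reads and shares 89.7%, so its reads may belong to a copy.

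Other thiol redox genes were lower where they passed the limit. Of 16, 0 were past it after glucose oxidase and 5 were lower with Et2HOBA, with 0 higher. Msrb2, a mitochondrial methionine sulfoxide reductase, had 577 reads in control, 295 with glucose oxidase and 110 when Et2HOBA was added, or 0.547-fold and 0.189-fold. Sesn1 and Sesn3, stress proteins of the sestrin family, were 0.211-fold and 0.345-fold of control with Et2HOBA. Their relative Sesn2 was 1.86-fold and inside the limit. Msrb3 was 0.389-fold.

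Of 14 other NADPH genes, 1 was higher in each comparison with control, and 1, Me3 with 16, 2 and 9 reads, was lower after glucose oxidase, shares near the background. The higher gene was Aldh1l2, a mitochondrial folate enzyme that yields NADPH, which had 52, 2244 and 3696 reads, or 46.1-fold and 70.6-fold. The list medians were -0.04 and -0.18. Of 10 oxidase genes, 0 were higher and 2 lower in each comparison with control. Nox1, a superoxide-generating NADPH oxidase, had 1016, 131 and 53 reads, or 0.138-fold and 0.0518-fold of control. Of 18 genes of selenoprotein synthesis and other selenoproteins, 0 were past the limit after glucose oxidase and 1, Selenoh, was lower with Et2HOBA, with 1764, 1026 and 869 reads. The medians of this list were -0.08 and -0.10.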

How the data were processed

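RNA of 1 library per group was prepared with a stranded polyadenylated RNA kit, per the labels' protocols. STAR, featureCounts and the mm10 build are named in the submitters' processing notes without versions, and the strand setting of the counting is not given in the sources used here. The deposited table for glucose oxidase plus Et2HOBA held raw read counts of that library and of control, per the file headers. The other tables held gene symbols and log2 differences as deposited by the authors. For glucose oxidase, read counts were recovered by inverting the transformation behind these log2 differences, given the deposited control counts, and 100% of 18275 genes came within 0.01 of a whole count (3.31% if control counts were raised by 1 read). Whole reads also placed 12 genes with a doubled name. DESeq2 1.42.0 returned the deposited values when its variance-stabilizing transformation was run pair by pair, over 18287 genes for the comparisons with control and over the 7 genes deposited for the treated pair. The recovery was tested on simulated data.

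Normalized counts used median-of-ratios size factors over the 3 libraries (1.03 for control, 0.965 for glucose oxidase, 1.04 with Et2HOBA). Levels per length used the merged exons of GENCODE release M21, where all 17878 gene IDs of the same version had the same position. Shared stretches are 50-base sequences of the longest transcript that occur in another gene. With no replicates, no count model was fitted.

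The members, lists, limit and scale were chosen with earlier results of these data known. Reads are given for each member past the limit in any comparison, for Nfe2l2 and Keap1, and for Gpx1, Gpx4, Prdx1, Sod1, Sod2 and Cat. Other members are named as ends of a range, in comparisons of paralogs or compartments, or for few reads, and pathway genes are at most 4 per list with the largest ratio and a mean normalized count of 50 or more. Ephx1, Oplah, Sesn2 and Me3 were named after their values were seen. Alternatives were a pseudocount of 1, total-count and edgeR (4.0.16) TMM scaling, the deposited scale, genes with no shared stretch, a mean normalized count of at least 10, and limits of 0.5 and 2. Leaving out members whose exons overlap another gene was added after the data were seen.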

Additional observations from a re-analysis of the deposited data

How the results depend on the processing

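No paired analysis was possible because each group had 1 library, and for the same reason no library could be left out in turn. After glucose oxidase, 22 members were higher and 1 lower than control at a limit of 0.5, and 2 were higher at a limit of 2. With Et2HOBA, 23 were higher and 6 lower at 0.5, and 7 were higher at 2. Between the treated libraries 2 were higher and 3 lower at 0.5, and 0 were lower at 2. The median log2 ratio after glucose oxidase was 0.36 on the scale of the deposited tables. Without the members whose exons overlap another gene, an alternative added after the data were seen, 36 members remained; the medians against control were 0.62 and 0.72, and 0 were lower between the treated libraries, since Txnip is left out by construction. Total-count scaling lowered the median of all genes by 0.13 with Et2HOBA against control. Under it 2 members (Gstm2 and Txnip) were lower there, the median was 0.34, and the median between the treated libraries turned to -0.0442. With a pseudocount of 1, 2 members were lower between the treated libraries, as Gstt1 was added. Of the members' single ratios, 96 of 138 moved beyond counting error under total-count scaling and 13 of 138 on the deposited scale, and no ratio past the limit changed sign. With a pseudocount of 1 and with TMM scaling each single ratio stayed within counting error. For Gpx7, with 0 reads in control, that interval has no upper bound, and its ratio after glucose oxidase went from 0.60 to 2.63 with a pseudocount of 1. The alternatives that leave out genes keep the main ratios of the rest, so they do not test single ratios. Over genes with no shared stretch, 9 members were past the limit after glucose oxidase and 10 with Et2HOBA, as Gclm, Gstm1, Taldo1 and, for glucose oxidase, Gstp1 leave by construction. Few reads limit Gpx3, Gpx7 and Gstt1.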
